A study of Mus musculus with 32 samples.

Results

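The genes described here mark the interneurons of the striatum and the transmitters they use: Chat, Slc18a3, Slc5a7 and Ache for acetylcholine, Th for dopamine synthesis, Nos1 for nitric oxide, and Pvalb and Calb2 for calcium-binding proteins. They were chosen as all probe sets that the platform table gives to 1 of these symbols alone, which gave 11 probe sets for 8 of the 18193 genes measured. Nos1 had 4 probe sets and each other gene had 1. Expression was measured on 32 Affymetrix arrays of striatal RNA from male mice on a CBA X C57Bl/6 background, aged 12 weeks. The groups were R6/2 mice given NVP-HSP990 (8 arrays), R6/2 mice given vehicle (7 arrays), WT mice given NVP-HSP990 (10 arrays) and WT mice given vehicle (7 arrays). R6/2 mice, a model of Huntington's disease, carry part of the human huntingtin gene as a transgene. NVP-HSP990, called HSP990 here, is an inhibitor of the chaperone HSP90 that was given by oral gavage, and the design text states a dose of 12 mg/kg and a time of 4 h. All groups were dosed in the afternoon, per the labels. Because the labels do not tie arrays to individual mice, the p-values reflect only the variation among these arrays, part of which may be technical.

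Most neurons of the striatum are GABAergic medium spiny projection neurons, and interneurons are a small minority. Cholinergic interneurons are large, tonically active cells that make acetylcholine with choline acetyltransferase (Chat), load it into vesicles with the vesicular acetylcholine transporter (Slc18a3) and take choline back up with a high-affinity transporter (Slc5a7), while acetylcholinesterase (Ache) breaks acetylcholine down outside the cell. The GABAergic interneurons include fast-spiking cells with parvalbumin (Pvalb), cells with neuronal nitric oxide synthase (Nos1) that also make somatostatin and neuropeptide Y, cells with calretinin (Calb2), and cells with tyrosine hydroxylase (Th), the rate-limiting enzyme of catecholamine synthesis.

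The deposited values are log2 intensities, and each gene is given by its brightest probe set. Values of different probe sets were not set against each other. The probe sets of Chat, Slc18a3, Slc5a7 and Th were dim: their means over the 32 arrays were 4.25, 5.14, 4.00 and 5.48, below the median of all probe sets at 5.77. Differences of dim probe sets understate the change of the RNA when part of their signal is background. The Ache, Nos1, Pvalb and Calb2 means lay at the 76.2, 77.6, 84.7 and 63.5 percentiles of all probe sets.

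Markers of the medium spiny neurons, the main cell type of the labelled tissue, were measured by 8 genes, and their mean level per array lay between 9.24 and 11.9. Arrays differed in markers of neighbouring tissue. The mean of 4 cortical markers (Slc17a7, Tbr1, Neurod6 and Fezf2) ran between 4.31 and 7.61 in R6/2 HSP990, 4.38 and 8.34 in R6/2 vehicle, 4.29 and 7.49 in WT HSP990, and 4.60 and 7.68 in WT vehicle. The R6/2 vehicle array of replicate 7 stood apart, with the highest mean (6.88) of 8 markers of neighbouring subcortical regions (Tcf7l2, Slc17a6, Prkcd, Zic1, Trpc4, Gbx1, Npas1 and Gbx2) and a cortical mean of 8.23. That of replicate 4 had the highest cortical mean (8.34) and the lowest medium spiny neuron mean (9.24). The difference between the 3' and 5' control probe sets of Gapdh, a sign of RNA quality, was over 2 on the R6/2 HSP990 array of replicate 5 (5.01) and the WT vehicle array of replicate 5 (2.23). Some values of the 8 genes that moved when 1 of these arrays was left out are given without it as well. Others appear only within the ranges over arrays left out in turn.

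R6/2 striatum had less Slc18a3, Th and Nos1 RNA than WT striatum on vehicle: Slc18a3 was 1.62-fold, Th 1.88-fold and Nos1 1.63-fold lower. The other 5 genes did not pass the test on vehicle. In limma's moderated test, with Benjamini-Hochberg adjustment over all 18193 genes and a threshold of 0.05, 3 of the 8 genes were called, all lower, against 9.6% of all genes called lower and 21.5% called in either direction. The median difference of the 8 genes was -0.35 on the log2 scale and that of all genes was -0.01, and 7 of the 8 differences were negative. In whole tissue, fewer cells of a type and less RNA per cell cannot be told apart.

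Slc18a3, the vesicular acetylcholine transporter, had a lowest, median and highest log2 level of 4.44, 4.68 and 4.79 on the R6/2 vehicle arrays, against 5.14, 5.15 and 5.99 on the WT vehicle arrays. Every R6/2 array lay below every WT array. The difference was -0.70 ± 0.13 (SE; adjusted p = 0.000118 by limma). Among all genes, the groups did not overlap in 3.9%.

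Th showed 4.66, 5.04 and 5.47 (lowest, median and highest) on the R6/2 vehicle arrays, against 5.48, 5.88 and 6.50 on the WT vehicle arrays. The groups did not overlap, though the highest R6/2 value lay just below the lowest WT value. Its log2 difference was -0.91 ± 0.14 (SE; adjusted p = 1.63e-05 by limma), the largest fall among the 8 genes on vehicle. Th RNA in striatal tissue could also come from dopaminergic fibres, whose cell bodies lie in the midbrain. The mean level of 4 midbrain dopamine neuron markers (Slc6a3, Pitx3, En1 and Dlk1) ran between 4.45 and 4.94 on the R6/2 vehicle arrays and 4.53 and 5.12 on the WT vehicle arrays, with overlapping groups. All these means lay below the median of all probe sets. limma called 0 of the 4 in any comparison, and on vehicle 1 had an unadjusted p under 0.05, with differences from -0.62 to 0.01. Over the 32 arrays, deviations of Th and of the mean of these markers from group means had Pearson's r = 0.412. It was not called (adjusted p = 0.305, permutation test) and ran from -0.107 in WT HSP990 to 0.795 in WT vehicle. The part of these markers in the Th difference was not tested.

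Nos1 ran at 7.31, 7.51 and 8.13 (lowest, median and highest) on the R6/2 vehicle arrays, against 7.89, 8.36 and 8.52 on the WT vehicle arrays. Only the R6/2 array of replicate 7, at 8.13, reached into the WT range. The difference was -0.70 ± 0.10 (SE; adjusted p = 3.47e-06 by limma), and without that array it was -0.79 ± 0.09 (adjusted p = 3.36e-08). That array also had the highest Calb2 value and the highest markers of neighbouring subcortical regions, and the part of these in its Nos1 level was not tested.

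Leaving out any single array, or both arrays of strong 3' bias, kept Slc18a3, Th and Nos1 past the threshold in both comparisons of the genotypes. With single arrays left out, the differences on vehicle ran from -0.73 to -0.59 for Slc18a3, from -0.99 to -0.82 for Th and from -0.79 to -0.66 for Nos1.

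Chat RNA, which encodes the enzyme that makes acetylcholine, differed by -0.05 ± 0.10 on vehicle, with a 95% interval of -0.25 to 0.15 (adjusted p = 0.797 by limma). Its levels were 3.95, 4.24 and 4.52 on the R6/2 vehicle arrays and 4.06, 4.32 and 4.39 on the WT vehicle arrays, so the WT values lay inside the R6/2 range. Slc5a7 differed by -0.22 ± 0.11 (adjusted p = 0.138) and Ache by -0.35 ± 0.16 (adjusted p = 0.131). Neither choline transporter nor esterase passed the test, and both had an unadjusted p below the threshold (0.0434 for Slc5a7 and 0.04 for Ache). Without the WT vehicle array of replicate 7, which had the lowest WT value of Ache (7.15), the Ache difference was -0.47 and passed (adjusted p = 0.0257).

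Pvalb and Calb2 varied widely between arrays of 1 group. Pvalb, a marker of fast-spiking interneurons, ran from 7.91 to 9.40 on the R6/2 vehicle arrays and from 8.37 to 9.80 on the WT vehicle arrays, with a difference of -0.35 ± 0.26 (95% interval -0.87 to 0.17; adjusted p = 0.367 by limma). Calb2 ran from 6.13 to 8.93 on the R6/2 vehicle arrays and from 6.02 to 8.46 on the WT vehicle arrays. Its difference of 0.27 ± 0.37 (adjusted p = 0.675) became -0.03 without the R6/2 vehicle array of replicate 7. These intervals leave room for changes in either direction.

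**Figure D1:**
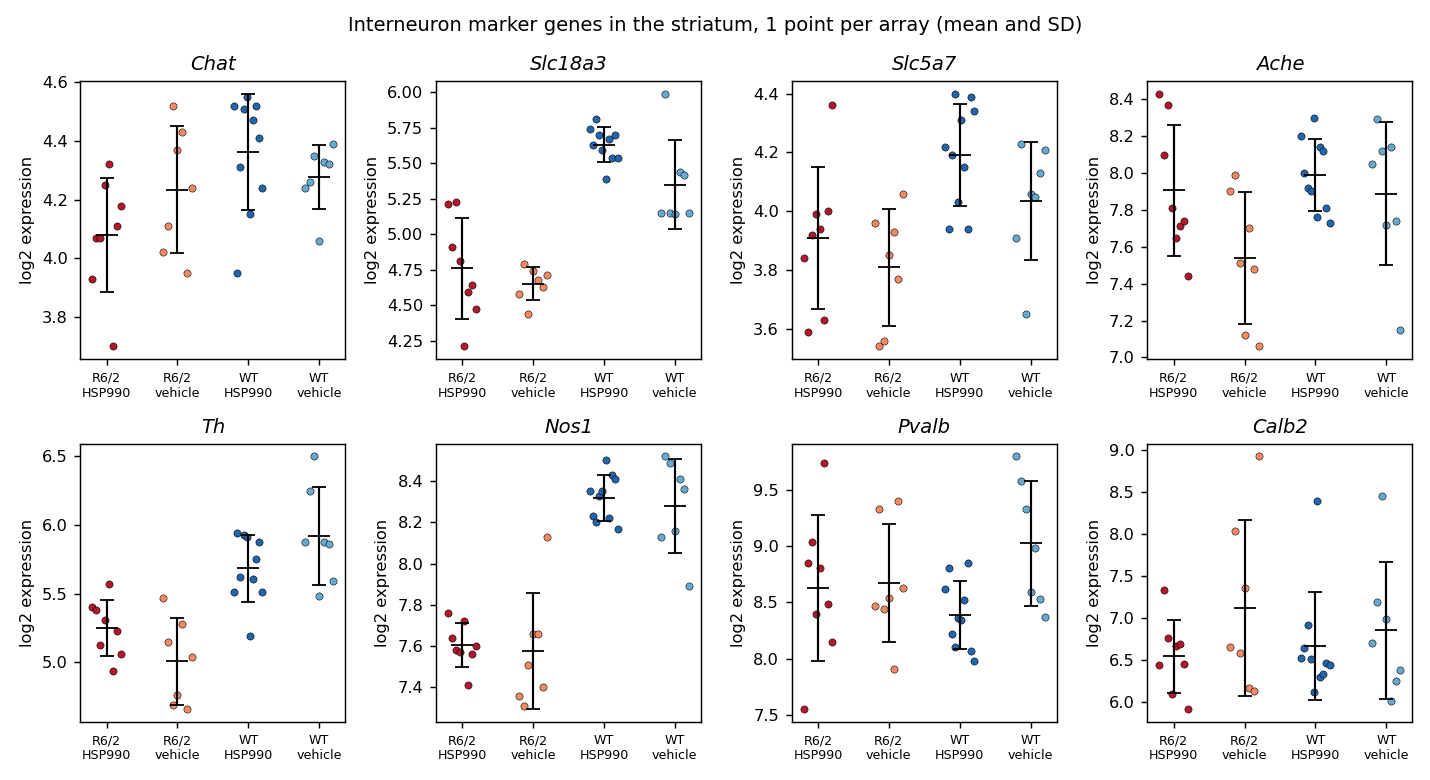
Log2 expression (y axis) of the 8 interneuron marker genes, 1 point per array, in R6/2 HSP990 (n = 8), R6/2 vehicle (n = 7), WT HSP990 (n = 10) and WT vehicle (n = 7), with the mean and SD. Slc18a3 and Nos1 are lower in R6/2 on both treatments, Th separates the genotypes on vehicle, and Calb2 is spread by single high arrays, such as R6/2 vehicle at 8.93.

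On HSP990, 5 of the 8 genes were lower in R6/2 than in WT: Slc18a3, Nos1, Th, Chat and Slc5a7. No gene of the 8 was called higher. Of all genes, 11% were called lower in this comparison and 33.6% in either direction. The median difference of the 8 genes was -0.28 and that of all genes 0.04, with 7 of 8 differences negative.

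Slc18a3 reached a lowest, median and highest level of 4.21, 4.72 and 5.23 on the R6/2 HSP990 arrays, against 5.39, 5.65 and 5.81 on the WT HSP990 arrays. The groups did not overlap, as was the case for 9.4% of all genes. The difference was -0.87 ± 0.11 (SE; adjusted p = 2.32e-07 by limma), a 1.83-fold fall. Nos1 separated the genotypes as well, with 7.41, 7.59 and 7.76 on the R6/2 HSP990 arrays, against 8.17, 8.34 and 8.50 on the WT HSP990 arrays. Its difference was -0.71 ± 0.09 (adjusted p = 1.21e-07), close to the -0.70 on vehicle, which used other arrays.

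Th was at 4.94, 5.27 and 5.57 on the R6/2 HSP990 arrays, against 5.19, 5.68 and 5.94 on the WT HSP990 arrays, with a difference of -0.43 ± 0.13 (adjusted p = 0.00763 by limma). Here the groups overlapped. The genotype difference of Th on HSP990 less that on vehicle was 0.48 ± 0.19, the interaction of genotype and treatment, with an unadjusted p of 0.0175 and an adjusted p of 0.271, so it did not pass. None of the 8 genes had a called interaction, and 0.247% of all genes did; 1 of the 8 (Th) had an unadjusted p below 0.05.

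Chat and Slc5a7 passed on HSP990 with small differences at dim probe sets. Chat ran at 3.70, 4.09 and 4.32 on the R6/2 HSP990 arrays, against 3.95, 4.44 and 4.55 on the WT HSP990 arrays (difference -0.28 ± 0.09, adjusted p = 0.0115 by limma). Slc5a7 ran at 3.59, 3.93 and 4.36 on the R6/2 HSP990 arrays, against 3.94, 4.20 and 4.40 on the WT HSP990 arrays (difference -0.28 ± 0.09, adjusted p = 0.0206). Both pairs of groups overlapped. The Slc5a7 call was lost when the R6/2 HSP990 array of replicate 2 (adjusted p = 0.0568) or of replicate 6 (0.0547) was left out. Whether the Chat difference was larger on HSP990 than on vehicle is the interaction, at -0.24 ± 0.13 with an adjusted p of 0.46.

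Ache, Pvalb and Calb2 were not called between the genotypes on HSP990. Ache had a difference of -0.08 ± 0.15 (95% interval -0.38 to 0.21), Pvalb one of 0.24 ± 0.23 (-0.23 to 0.71) and Calb2 one of -0.12 ± 0.33 (-0.80 to 0.56). Pvalb thus had opposite signs on vehicle and on HSP990, neither past the test.

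**Figure D2:**
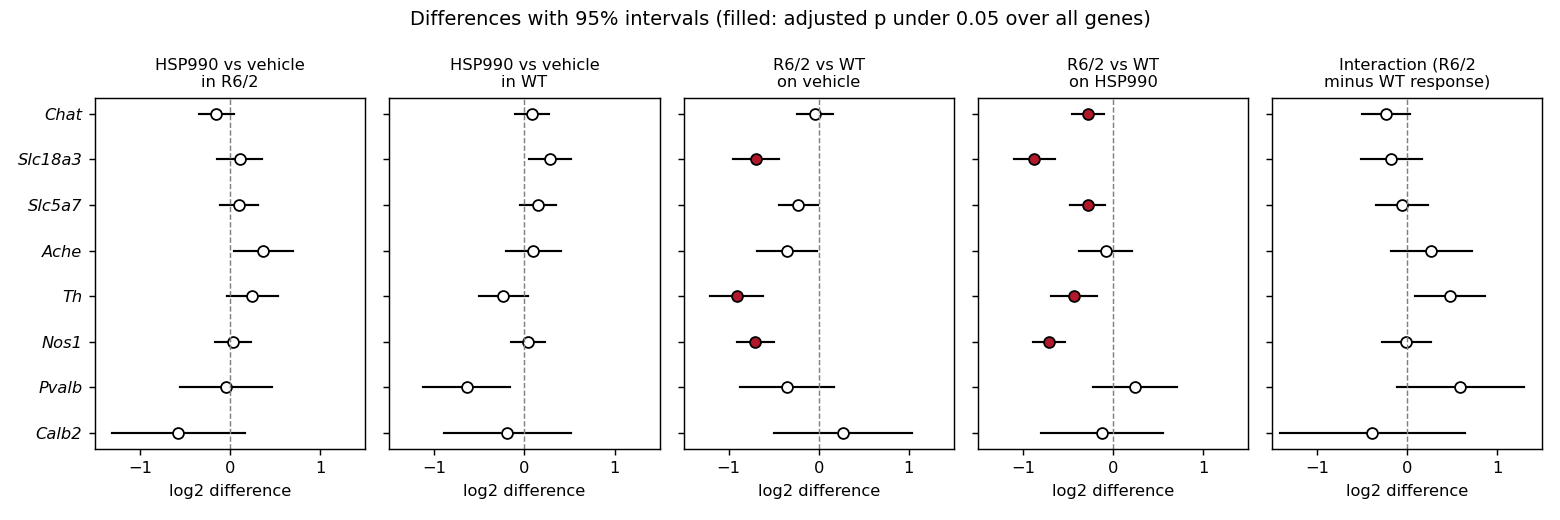
Log2 differences (x axis) of the 8 genes in each of the 5 comparisons, with 95% intervals and filled points for an adjusted p under 0.05. Slc18a3, Th and Nos1 lie left of 0 in both comparisons of R6/2 with WT, and no point is filled for HSP990 against vehicle or for the interaction.

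HSP990 moved none of the 8 genes past the threshold in either genotype. In R6/2 striatum, 0 of the 8 genes were called, while 3.09% of all genes were, and in WT striatum 0 of the 8 were called, while 5.8% of all genes were. At an unadjusted p under 0.05 there was 1 gene in R6/2 (Ache) and there were 2 in WT (Pvalb and Slc18a3). The median difference of the 8 genes was 0.06 in each genotype, against medians of 0.02 in R6/2 and -0.03 in WT over all genes.

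Ache in R6/2 mice had levels of 7.44, 7.77 and 8.43 on HSP990, against 7.06, 7.51 and 7.99 on vehicle. The groups overlapped, and the difference of 0.37 ± 0.16 had an adjusted p of 0.233 by limma. In WT mice Ache differed by 0.10 ± 0.15 (adjusted p = 0.798), and the interaction of 0.27 ± 0.22 was not called (adjusted p = 0.654).

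Pvalb in WT mice had levels of 7.98, 8.35 and 8.85 on HSP990, against 8.37, 8.98 and 9.80 on vehicle. Its difference of -0.64 ± 0.24 had an adjusted p of 0.113 by limma, and 2 other settings put it past the threshold: a fit of only the groups compared (0.0417) and a fit with array weights (0.0361). In R6/2 mice it differed by -0.05 ± 0.25 (adjusted p = 0.959). The interaction of 0.59 ± 0.34 was not called (adjusted p = 0.485).

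Slc18a3 in WT mice had levels of 5.39, 5.65 and 5.81 on HSP990, against 5.14, 5.15 and 5.99 on vehicle. The difference of 0.28 ± 0.12 was not called (adjusted p = 0.163 by limma). The highest vehicle value, 5.99, belonged to replicate 2, and without that array the difference was 0.39 and passed (adjusted p = 0.027). In R6/2 mice the difference was 0.11 ± 0.12 (adjusted p = 0.75).

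For the other genes the intervals bound the HSP990 effect. Nos1 differed by 0.03 (95% interval -0.17 to 0.23) in R6/2 and by 0.04 (-0.14 to 0.23) in WT. Without the R6/2 vehicle array of replicate 7, the Nos1 difference in R6/2 was 0.12 ± 0.08 (adjusted p = 0.611 by limma). Chat differed by -0.15 (-0.35 to 0.04) in R6/2 and by 0.08 (-0.10 to 0.27) in WT. Slc5a7 differed by 0.10 (-0.11 to 0.31) in R6/2 and by 0.15 (-0.05 to 0.35) in WT. Th had 0.24 (-0.04 to 0.53) in R6/2 and -0.23 (-0.50 to 0.03) in WT, of opposite sign. Calb2 had the widest intervals, -1.31 to 0.17 in R6/2 and -0.89 to 0.52 in WT. Its difference in R6/2 was -0.57 ± 0.36 with all arrays and -0.27 ± 0.33 without the R6/2 vehicle array of replicate 7, not called either way (adjusted p = 0.483 and 0.834 by limma).

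The 4 probe sets of Nos1 did not behave alike. The brightest, 1429887_at, carried the values above. Probe set 1438483_at, also above the median of all probe sets, had levels of 6.66, 6.79 and 7.50 on the R6/2 vehicle arrays, against 7.38, 7.68 and 8.23 on the WT vehicle arrays. It was lower in R6/2 by 0.84 ± 0.13 on vehicle (log2 difference -0.84, adjusted p = 1.66e-05 in a limma fit of all probe sets) and had a difference of -0.95 ± 0.11 on HSP990 (adjusted p = 1.04e-07). On HSP990 its groups did not overlap: 6.62 to 7.25 on the R6/2 arrays and 7.68 to 8.06 on the WT arrays.

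The other 2 probe sets of Nos1 were dim and not called. Probe set 1422949_at had a mean of 4.63 over all arrays and differences of -0.13 ± 0.10 on vehicle (adjusted p = 0.406) and -0.05 ± 0.08 on HSP990 (adjusted p = 0.719). Probe set 1458626_at had a mean of 3.64 and differences of 0.06 ± 0.10 (adjusted p = 0.765) and -0.01 ± 0.09 (adjusted p = 0.936). With the mean of all 4 probe sets in place of the brightest, Nos1 was still called lower in R6/2 in both comparisons, at a smaller size of -0.40 on vehicle and -0.43 on HSP990. Where the probe sets lie on the Nos1 transcript was not analysed here.

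**Figure D3:**
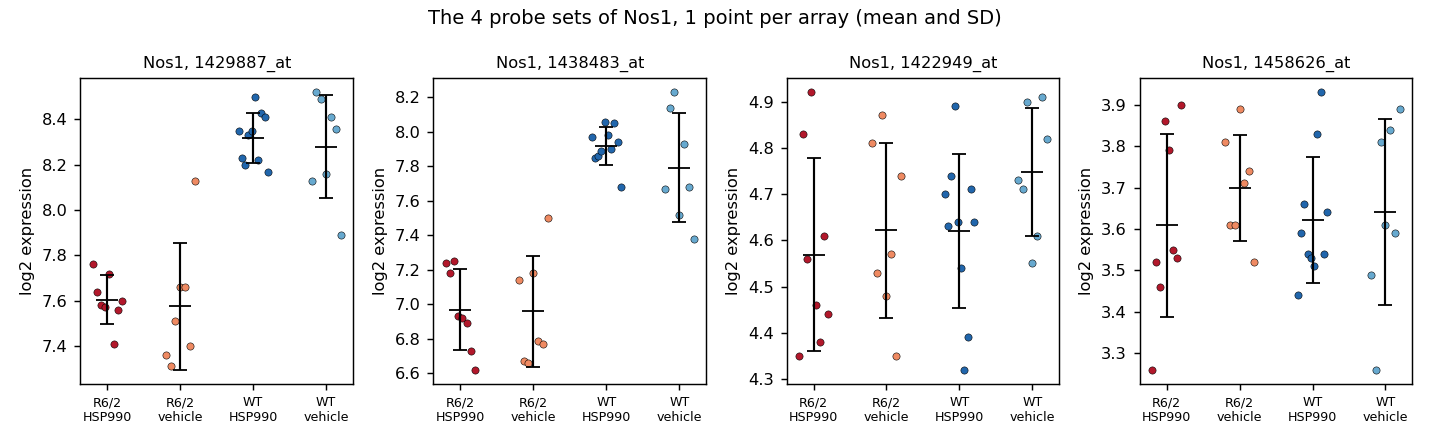
Log2 expression (y axis) of the 4 probe sets of Nos1, 1 point per array, with the mean and SD, in R6/2 HSP990 (n = 8), R6/2 vehicle (n = 7), WT HSP990 (n = 10) and WT vehicle (n = 7). The bright probe sets (means 7.97 and 7.44) are lower in R6/2, and the dim ones (4.63 and 3.64) have overlapping groups.

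Chat and Slc18a3 share a locus: on chromosome 14 (GRCm38.p6) the RefSeq annotation places Slc18a3 (32462437 to 32464850) inside Chat (32408203 to 32465909), both on the minus strand, with the Slc18a3 start 1059 bases downstream of the Chat start. The results of the 2 probe sets were not tested against each other. Which transcripts of the locus each probe set detects was not analysed here. Th lies on chromosome 7 (142892779 to 142899995), Nos1 and Ache on chromosome 5 (117866839 to 117958840 and 137288247 to 137294466), Calb2 on chromosome 8 (110142526 to 110168212), Pvalb on chromosome 15 (78191112 to 78206400) and Slc5a7 on chromosome 17 (54273590 to 54299038).

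The 250 bases upstream of the annotated start are shown for the 3 genes that were lower in R6/2 on both treatments and for Chat, the neighbour of Slc18a3 (RefSeq, GRCm38.p6, 5' to 3' on the strand of the gene). The windows are chr14:32464851-32465100 (minus strand) for Slc18a3, chr14:32465910-32466159 (minus) for Chat, chr7:142899996-142900245 (minus) for Th and chr5:117866589-117866838 (plus) for Nos1. Capitals mark the cyclic AMP response element (CRE, TGACGTCA) or, where it is absent, its 5-base core (TGACG, or CGTCA on the other strand).
Slc18a3: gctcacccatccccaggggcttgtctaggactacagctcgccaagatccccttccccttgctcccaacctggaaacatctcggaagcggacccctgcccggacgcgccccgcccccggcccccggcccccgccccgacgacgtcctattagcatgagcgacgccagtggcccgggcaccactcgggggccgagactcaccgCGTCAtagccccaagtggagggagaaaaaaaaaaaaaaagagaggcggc
Chat: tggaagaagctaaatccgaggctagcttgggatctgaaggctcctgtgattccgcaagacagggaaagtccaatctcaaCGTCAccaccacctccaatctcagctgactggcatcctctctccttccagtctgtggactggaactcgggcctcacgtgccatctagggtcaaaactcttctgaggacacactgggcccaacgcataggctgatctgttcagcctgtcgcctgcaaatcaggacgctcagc
Th: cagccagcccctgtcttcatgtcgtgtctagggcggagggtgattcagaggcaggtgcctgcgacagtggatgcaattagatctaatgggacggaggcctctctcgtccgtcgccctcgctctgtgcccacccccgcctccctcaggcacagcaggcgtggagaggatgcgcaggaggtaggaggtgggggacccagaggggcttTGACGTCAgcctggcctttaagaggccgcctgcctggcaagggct
Nos1: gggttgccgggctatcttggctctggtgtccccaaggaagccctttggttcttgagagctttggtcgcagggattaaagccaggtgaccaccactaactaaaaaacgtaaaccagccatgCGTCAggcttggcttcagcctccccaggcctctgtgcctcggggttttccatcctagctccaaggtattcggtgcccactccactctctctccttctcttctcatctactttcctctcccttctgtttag
Such windows were at hand for 7 of the 8 genes. They were searched on both strands for CRE, its core (a whole CRE holds 2 overlapping cores), the NR4A response element NBRE (AAAGGTCA) and a heat shock element (GAA, TTC and GAA blocks in this order, with 2 bases between neighbours). Th alone held a whole CRE, which began 45 bases before its start, and 1.55% of 32851 mouse promoter windows of that length hold one. The core alone was present in Slc18a3 (49 bases before the start), Nos1 (130) and Chat (171). Of all windows, 17.8% hold the core, either alone or within a whole CRE. No window of the 7 genes held NBRE or the heat shock element, which occur in 1.34% and 0.466% of windows. A match describes the letters alone and is not a binding site.

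Other genes of each pathway were taken from lists and followed beside the 8 genes. For R6/2 against WT, 9.6% of all genes were called lower and 21.5% in either direction on vehicle. On HSP990 these shares were 11% and 33.6%. The counts of the lists below were not tested against these shares. For acetylcholine, 15 of 20 listed genes of cholinergic neurons and acetylcholine handling were measured, and on vehicle 4 were lower in R6/2 and 0 higher. Prima1, which anchors acetylcholinesterase in the membrane, fell by 1.74 on the log2 scale (SE 0.18, adjusted p = 1.62e-08 by limma). Ecel1, a neuronal peptidase-like protein, fell by 0.88 (SE 0.20, adjusted p = 0.00187) and Acly, which makes acetyl-CoA, fell by 0.47 (SE 0.11, adjusted p = 0.00152). Lhx8, a transcription factor of cholinergic interneurons, fell by 0.60 (SE 0.22, adjusted p = 0.0474), a call that was lost when any 1 of 25 arrays was left out (adjusted p up to 0.144). The transcription factor genes Isl1, Zic4 and Gbx2 of this list were not called. Their means were 8.06, 5.03 and 3.58 on the R6/2 vehicle arrays, against 8.16, 4.80 and 3.51 on the WT vehicle arrays.

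On HSP990, 4 of these 15 genes were lower in R6/2 and 0 higher. They were Prima1 (-2.18 ± 0.16) and Ecel1 (-1.001 ± 0.18), and, with smaller differences, Slc44a1, a choline transporter (-0.35 ± 0.12), and Chka, a choline kinase (-0.18 ± 0.06). Slc44a1 lost its call without the R6/2 HSP990 array of replicate 2 and Chka without that of replicate 8. The median difference of the list was -0.10 on vehicle and -0.11 on HSP990. On each treatment 11 of the 15 genes did not pass. On HSP990 these included Lhx8, Isl1, Zic4 and Gbx2. Their means were 7.03, 8.54, 4.77 and 3.58 on the R6/2 HSP990 arrays, against 7.43, 8.19, 4.84 and 3.57 on the WT HSP990 arrays.

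Of 12 nicotinic receptor genes and modulators, 3 were lower and 0 higher in R6/2 on vehicle. Lynx1, which binds nicotinic receptors, fell by 1.12 (SE 0.12, adjusted p = 4.87e-08 by limma), the subunit Chrna4 by 0.52 (SE 0.16, adjusted p = 0.0202) and the modulator Lypd6 by 0.45 (SE 0.14, adjusted p = 0.0215). Leaving out WT vehicle replicate 3 ended the Chrna4 call (adjusted p = 0.0505) and leaving out WT vehicle replicate 4 the Lypd6 call (0.0509). On HSP990 Lynx1 was lower (-0.89 ± 0.11) and the subunit Chrnb2 higher (0.28 ± 0.07). The list's median lay near that of all genes on both treatments, at 0.03 and -0.02.

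Th fell on vehicle without a called change in the other genes of its pathway. Of 12 genes of dopamine synthesis and transport, limma called 0 in R6/2 against WT on vehicle, 4 had an unadjusted p under 0.05, and their differences ran from -0.42 to 0.36. On HSP990 the decarboxylase Ddc (0.53 ± 0.18, adjusted p = 0.0219 by limma) and Gch1 (0.43 ± 0.12, adjusted p = 0.00416), the first enzyme of tetrahydrobiopterin synthesis, were higher in R6/2. Qdpr, which regenerates tetrahydrobiopterin, was lower (-0.21 ± 0.08, adjusted p = 0.0442), a call lost when any 1 of 11 arrays was left out.

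In nitric oxide signalling, 2 of 12 genes were lower in R6/2 on vehicle and 5 on HSP990, with 0 higher. Of all genes, 9.6% were called lower on vehicle and 11% on HSP990. Gucy1b1, a subunit of the nitric oxide receptor guanylyl cyclase, fell by 0.48 on vehicle (SE 0.12, adjusted p = 0.00418 by limma; 0.0963 with the mean of its probe sets), and Ddah1, which degrades inhibitors of nitric oxide synthase, fell by 0.26 (SE 0.09, adjusted p = 0.0397). The Ddah1 call on vehicle was lost without any 1 of 8 arrays. On HSP990 the lower genes were Dlg4 (-1.50 ± 0.37), the postsynaptic scaffold that binds Nos1, and, between -0.30 and -0.39, Ddah1, Gucy1a1, Gucy1b1 and the kinase Prkg2. The calls of Gucy1a1 and Gucy1b1 there were each lost without any 1 of 3 arrays, and that of Prkg2 without the R6/2 HSP990 array of replicate 4. Dlg4 varied widely on the R6/2 HSP990 arrays (SD 1.41, against 0.55 on the WT HSP990 arrays). With single arrays left out, its difference ran from -1.67 to -1.06 and stayed called. HSP990 itself raised 1 gene of this list, Nosip, an interactor of nitric oxide synthases, in R6/2 (0.63 ± 0.13, adjusted p = 0.0035).

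A list of other GABAergic interneuron genes was lower in R6/2 in part. It also held Gad1, Gad2 and Slc32a1, which the GABAergic medium spiny neurons express too. Of 23 measured genes, 7 were lower and 0 higher on vehicle, and the list's median difference was -0.25. Npy, the neuropeptide Y of Nos1 cells, fell by 0.94 (SE 0.11, adjusted p = 1.96e-07 by limma) and Sst, somatostatin of the same cells, by 0.54 (SE 0.12, adjusted p = 0.00152). Syt2, a synaptotagmin of fast-spiking terminals, fell by 1.18 (SE 0.15, adjusted p = 9.28e-07) and Cox6a2, a respiratory chain subunit found in parvalbumin cells, by 0.65 (SE 0.11, adjusted p = 2.76e-05). Pvalb itself did not pass in the same comparison. Nor did the potassium channel genes Kcnc1 and Kcnc2 of this list. Their means were 9.28 and 8.46 on the R6/2 vehicle arrays, against 9.36 and 7.98 on the WT vehicle arrays. Kit, Gad2 and Reln were the others called, at -0.59, -0.42 and -0.37. The Kit call was lost without any 1 of 3 arrays and the Reln call without any 1 of 8, and those of Reln and Gad2 were lost with the mean of a gene's probe sets.

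On HSP990, 8 of these 23 genes were lower and 1 higher in R6/2. Npy (-0.56 ± 0.10), Syt2 (-0.72 ± 0.14), Kit (-0.84 ± 0.17), Reln (-0.62 ± 0.12), Gad1 (-0.33 ± 0.09) and Cox6a2 (-0.35 ± 0.09) were among the lower genes, with Sst (-0.31 ± 0.11). The Sst call was lost without any 1 of 3 arrays. The higher gene was Htr3a (0.23 ± 0.09), a call lost without any 1 of 10 arrays. Kcnc1 and Kcnc2 did not pass here either. Their means were 9.17 and 7.91 on the R6/2 HSP990 arrays, against 9.02 and 7.18 on the WT HSP990 arrays. HSP990 raised 1 gene of the list, Reln, in WT striatum (0.51 ± 0.12, adjusted p = 0.00989 by limma).

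Among 6 calcium-binding relatives of Pvalb and Calb2, 3 were lower in R6/2 on vehicle and 0 higher: Necab2 (-1.09 ± 0.19), Hpca (-0.81 ± 0.23) and Calb1 (-0.43 ± 0.11), which encodes the calbindin of medium spiny neurons. On HSP990 Hpca (-1.11 ± 0.20), Necab2 (-0.84 ± 0.17) and Necab1 (-0.46 ± 0.14) were lower and S100b (0.36 ± 0.12) was higher. The call of Hpca on vehicle was lost with the mean of its probe sets (adjusted p = 0.305), and that of S100b with 3' bias as a covariate and with the replicate block (adjusted p of 0.0516 to 0.0966).

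Other calls of these lists also depended on the setting. With the mean of a gene's probe sets, the calls of Slc44a1, Chka, Prkg2 and Cox6a2 on HSP990 and of Chrna4, Lypd6, Ddah1 and Reln on vehicle were lost. With 3' bias as a covariate, those of Slc44a1, Qdpr, Gucy1a1, Gucy1b1, Sst and Htr3a on HSP990 and of Lhx8 and Reln on vehicle were lost.

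**Figure D4:**
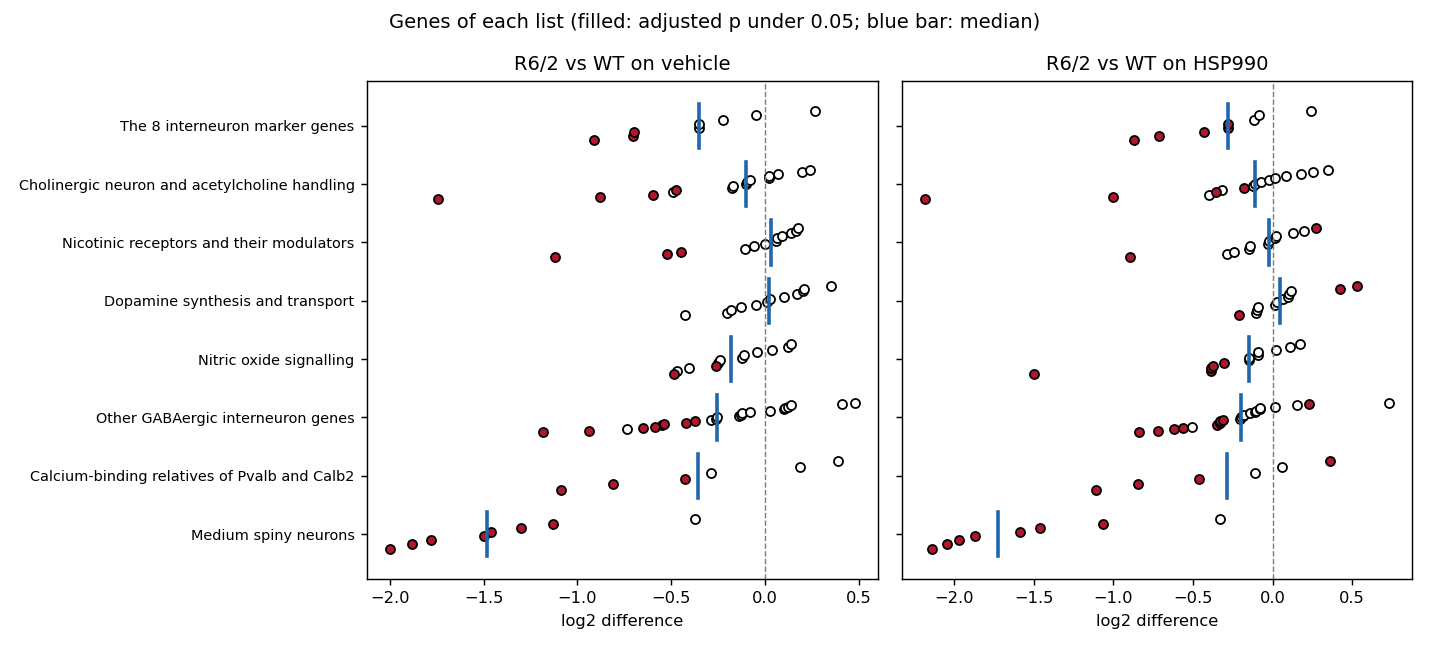
Log2 differences (x axis) of R6/2 against WT on vehicle and on HSP990 for the genes of each list, 1 point per gene, filled at an adjusted p under 0.05, with the list's median as a bar. The 8 interneuron marker genes have medians of -0.35 and -0.28, and the medium spiny neuron markers medians of -1.48 and -1.73.

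Markers of other cells moved between the genotypes as well. Of 8 medium spiny neuron markers, 7 were lower in R6/2 on each treatment. The log2 of their summed level ran between 12.8 and 14.3 on the R6/2 vehicle arrays and 14.9 and 15.2 on the WT vehicle arrays, and between 13.1 and 14.0 on the R6/2 HSP990 arrays and 14.9 and 15.3 on the WT HSP990 arrays. The log2 of the summed level of 4 microglial markers was 11.4 to 11.7 in R6/2 vehicle and 11.4 to 12.0 in WT vehicle, and 11.3 to 11.7 in R6/2 HSP990 and 11.6 to 11.9 in WT HSP990, so the genotypes overlapped. Their mean log2 level overlapped on vehicle (8.85 to 9.23 in R6/2 and 8.85 to 9.49 in WT) and did not overlap on HSP990 (8.28 to 9.05 in R6/2 and 9.17 to 9.49 in WT). Of the 4, Aif1 was lower in R6/2 on vehicle, and Aif1, Cx3cr1 and C1qa on HSP990. The Aif1 call on vehicle was lost without any 1 of 5 arrays (adjusted p up to 0.0853). C1qa, at -0.72 ± 0.24 on HSP990, lost its call with 3' bias as a covariate or with only the groups compared (adjusted p up to 0.232), and was -0.39 without the R6/2 HSP990 array of replicate 5. The part of either in the falls of Slc18a3, Th and Nos1 was not tested.

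Of 5 astrocyte genes, 1 was lower in R6/2 on vehicle (Aldh1l1) and 4 on HSP990 (Aldh1l1, Aqp4, Slc1a3 and Slc1a2). With 3' bias as a covariate Aqp4, Slc1a3 and Slc1a2 lost these calls on HSP990, and Aldh1l1 lost its call there without any 1 of 4 arrays. Of 3 oligodendrocyte genes, 0 passed on vehicle (0 at an unadjusted p under 0.05), and Mbp and Mog were lower on HSP990. Of 3 endothelial genes, 0 passed on vehicle (0 unadjusted), and Pecam1 was lower on HSP990. The calls of Mbp, Mog and Pecam1 were all lost with 3' bias as a covariate. They were also lost when the R6/2 HSP990 array of replicate 5 was left out, Mog without any 1 of 10 arrays and Pecam1 without any 1 of 4. limma called 0 of the 4 cortical and 0 of the 4 choroid plexus genes in any comparison, and on vehicle 0 cortical genes and 1 choroid plexus gene had an unadjusted p under 0.05. Of the 8 markers of neighbouring subcortical regions, 1 was higher (Trpc4) and 1 lower (Gbx1) in R6/2 on each treatment, and Trpc4 lost its call on HSP990 with the mean of its probe sets (adjusted p = 0.129).

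Some of these markers also differed between HSP990 and vehicle. In R6/2 striatum Drd1 was called lower on HSP990 than on vehicle (-0.80 ± 0.16, adjusted p = 0.00242 by limma), and not with only the groups compared (0.0642). Trpc4 and Cldn5 were also called lower, and Flt1 higher, on HSP990 than on vehicle in R6/2. These calls were lost without any 1 of 3, 24 and 4 arrays, with adjusted p over all settings of up to 0.166, 0.172 and 0.604. In WT striatum Flt1 was higher on HSP990 than on vehicle (0.39 ± 0.07, adjusted p = 0.000911). A list of 7 glucocorticoid-responsive genes, whose receptor is a client of HSP90, was chosen with earlier results of these data known. All 7 were called lower on HSP990 in WT, and 4 in R6/2 (Zbtb16, Nfkbia, Mfsd2a and Sgk1). Of all genes, 5.8% in WT and 3.09% in R6/2 were called in either direction. Because of how the list was chosen, its counts are a description and no independent test of the treatment. In R6/2 the Sgk1 call was lost without any 1 of 9 arrays (adjusted p up to 0.166 over all settings) and the Zbtb16 call without any 1 of 2 (up to 0.0843).

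Within groups, no pair of the 8 genes passed the test for common variation from array to array. Deviations from the group means over the 32 arrays were correlated for all 28 pairs, and none had an adjusted Pearson p under 0.05 in a permutation test (5 pairs at an unadjusted p under 0.05). The highest was Slc18a3 with Ache (Pearson's r = 0.552, p = 0.00551, adjusted p = 0.0885; Spearman's rho = 0.514, p = 0.00601, adjusted p = 0.0675; permutation test), and without the 2 arrays farthest from the median r was 0.511. Within the groups it ran from -0.07 in R6/2 vehicle to 0.915 in R6/2 HSP990, so it was not shared by all groups. The lowest was Slc5a7 with Pvalb (r = -0.518, permutation p = 0.00632, adjusted p = 0.0885; rho = -0.549, p = 0.00226, adjusted p = 0.0633). The other pairs at an unadjusted p under 0.05 were Ache with Th, Slc5a7 with Ache and Nos1 with Calb2. Their r was 0.488, -0.459 and 0.446 (adjusted p = 0.097, 0.111 and 0.242, permutation test). Ache with Th was positive, and Slc5a7 with Ache negative, in every group.

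Calb2 followed the markers of neighbouring subcortical regions. Over 80 relations of the 8 genes with 9 marker lists and the 3' bias of each array, a set of measures chosen after the values had been seen, 2 had an adjusted Pearson p under 0.05. Calb2 and the mean of the 8 markers of neighbouring subcortical regions had r = 0.796 (permutation p = 1e-05, the smallest that 100000 shuffles can give; adjusted p = 0.0008) and rho = 0.762 (p = 3e-05, adjusted p = 0.0024). Without the 2 arrays farthest from the median r was 0.743. It was positive in each group, at 0.684 in R6/2 HSP990, 0.961 in R6/2 vehicle, 0.767 in WT HSP990 and 0.66 in WT vehicle.

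Slc18a3 and the mean of 4 microglial markers had r = 0.669 (permutation p = 7e-05, adjusted p = 0.0028) and rho = 0.56 (p = 0.00096, adjusted p = 0.0384). Without the 2 farthest arrays r was 0.561, and within the groups it ran from 0.483 in WT HSP990 to 0.713 in R6/2 HSP990. Pvalb and the neighbouring-region markers had r = 0.443 (adjusted p = 0.289, permutation test) and rho = 0.571 (adjusted p = 0.0395), so only the rank correlation passed. Th and the 3' bias had r = 0.435 (adjusted p = 0.142, permutation test). With the 3' bias as a covariate the calls of all 3 genes lower on vehicle and all 5 lower on HSP990 remained.

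**Figure D5:**
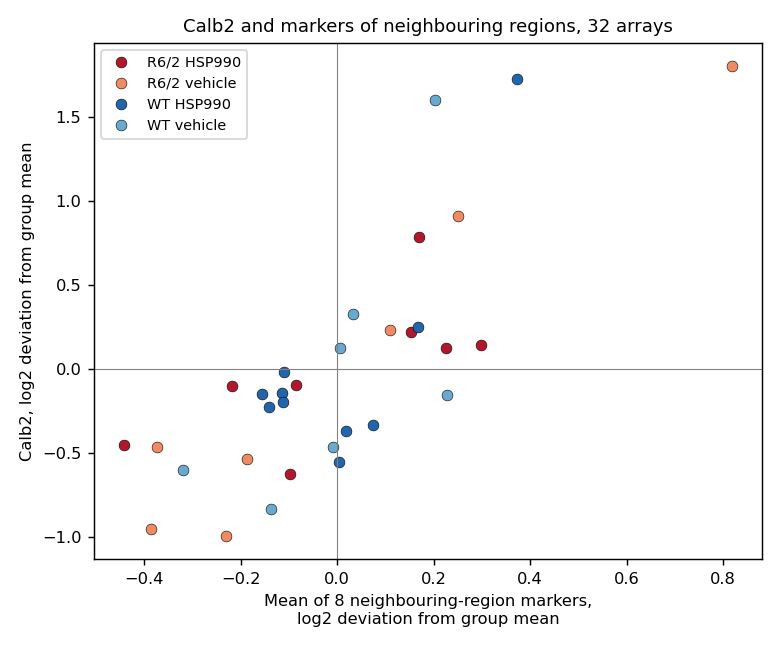
Deviation of Calb2 from its group mean (y axis, log2) against that of the mean of 8 markers of neighbouring subcortical regions (x axis, log2), 1 point per array for 32 arrays in 4 groups. The points rise together (r = 0.796), with the R6/2 vehicle array of replicate 7 at the upper right (0.82 and 1.81).

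For each gene, the 3 genes most like it were taken by Pearson's r of the deviations from group means over the 32 arrays, as a description, since values of 1 array share its labelling and hybridisation. Pvalb was closest to Nefh (0.821), Kcnc1 (0.78) and Vamp1 (0.759). Calb2 was closest to Tac2 (0.85), Pcdh8 (0.838) and Cpne7 (0.806). Ache was closest to Rnd2 (0.897), Rubcn (0.849) and Arhgdib (0.843).

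The closest genes to the others were Asb18 for Chat (0.761), Ptms for Slc18a3 (0.739), Zfp386 for Slc5a7 (0.722) and Lman2l for Th (0.779). Nos1 was closest to Srl (0.742), Kctd4 (0.733) and Dlx1as (0.721). None of the 8 genes was among the 3 most like another of the 8.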

How the data were processed

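Striatal RNA was labelled with a 3' IVT kit and hybridised to Affymetrix arrays, per the labels' protocols. The values deposited by the authors are on a log2 scale (2.15 to 14.7, array medians 5.73 to 5.78), and the sources used here do not name the normalization. Per the series' design text, the RACE software served for quality control. Symbols came from the platform table; of 45101 probe sets, 34945 had 1 gene, 932 several and 9160 none, and 64 were controls. Each gene was given by its brightest single-gene probe set, with no filter on low values. The 18193 genes were fitted with 4 group means in limma 3.58.1 in R 4.3.3. The fitting procedure was also tested on simulated data. The number of arrays limits the precision. Correlations used Python 3.11.15, scipy 1.17.1 and 100000 shuffles within groups.

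All 8 members are named. From each list, at most 8 genes called in any comparison are named, by smallest p. Htr3a, Kcnc1, Kcnc2, Slc32a1, Isl1, Zic4, Gbx2 and the named genes of marker lists were singled out after their values were seen. Members, lists and tests were chosen with earlier results of these data known. Alternatives were quantile normalization, median centring, dim genes left out, the mean of a gene's probe sets, all probe sets, only the groups compared, trended and robust variance, array weights, 3' bias as a covariate, arrays of strong 3' bias left out, replicate number as a block and each array left out. Replicate numbers were not taken to pair the samples. The mean correlation of same-numbered arrays ran from -0.161 to 0.202, against -0.004 for arrays of different numbers and groups. These values do not settle whether same-numbered arrays belong together.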

Additional observations from a re-analysis of the deposited data

Results flagged for a closer look

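Among 44 groups of values of the 11 probe sets, 2 held a sample far from the others, where chance gives about 1 in 20 groups, or 2.2. Calb2 was at 8.4 in WT HSP990 replicate 6, with the nearest other array at 6.92. The gap was 0.649 of the group's range, above Dixon's critical value of 0.466. That array had a mean of 6.04 over the markers of neighbouring subcortical regions, the highest of its group, and its part in the Calb2 value was not tested. Slc18a3 was at 5.987 in WT vehicle replicate 2, with the nearest other array at 5.44, a gap of 0.648 of the range against a critical value of 0.568. That array had the highest microglial mean of its group, at 9.49, and its part in the Slc18a3 value was not tested.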

How the results depend on the processing

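Slc18a3, Th and Nos1 stayed lower in R6/2 and past the threshold in both comparisons of the genotypes under every alternative that gave a value, with log2 differences on vehicle of -0.75 to -0.59, -1.02 to -0.82 and -0.79 to -0.40. Leaving out dim genes removed Chat, Slc18a3 and Slc5a7 and left 2 of the 8 genes called on HSP990. Only the groups compared, or array weights, gave 1 of the 8 called for HSP990 in WT (Pvalb), and array weights called Slc5a7 lower in R6/2 on vehicle (adjusted p = 0.039). With each array left out, the 8 genes gave 0 to 0 calls for HSP990 in R6/2, 0 to 1 in WT, 3 to 4 and 4 to 5 for R6/2 against WT on vehicle and on HSP990, and 0 to 0 for the interaction. Over all genes these ranges were 309 to 1043, 768 to 1194, 3281 to 4379, 5740 to 6305 and 30 to 182.

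Counts over all genes moved for HSP990 in R6/2 to 202 (only the groups compared) and 368 (3' bias as a covariate), for HSP990 in WT to 1815 (array weights), and for the interaction to 80 (mean of probe sets), 150 (array weights), 16 (3' bias as a covariate) and 25 (both arrays of strong 3' bias left out). With replicate number as a block, 655 genes were called for HSP990 in WT and 23 for the interaction, and Slc5a7 lost its call on HSP990 (adjusted p = 0.0722), which left 4 of the 8 genes called there. Of 28 arrays, 7 were closest to their own number. The numbers were not taken to pair samples, and whether same-numbered arrays belong together was not settled.

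Signs turned only among differences of the 8 genes that were not called. Nos1 in R6/2 was -0.0241 with the mean of its probe sets, and the interaction was 0.018 for Slc5a7 with array weights and 0.00307 (quantile normalization) and 0.0565 (array weights) for Nos1. With arrays left out in turn, the log2 difference ran from -0.014 to 0.122 for Nos1 and -0.208 to 0.105 for Pvalb (HSP990 in R6/2), from -0.0229 to 0.166 for Ache, -0.024 to 0.0809 for Nos1 and -0.381 to 0.0785 for Calb2 (HSP990 in WT), from -0.0938 to 0.00165 for Chat and -0.0342 to 0.534 for Calb2 (R6/2 against WT on vehicle), from -0.231 to 0.0731 for Calb2 (on HSP990), and from -0.12 to 0.00787 for Slc5a7 and -0.0552 to 0.0811 for Nos1 (interaction). The causes were not tested.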
